A study of Mus musculus with 2 samples.

Results

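The genes described here are 48 genes of the secretory pathway and of protein folding in the endoplasmic reticulum (ER), taken by name and not by level. They were sorted by the step at which they act, into 6 genes of signal recognition, 9 of translocation, 5 of signal cleavage, 7 of glycosylation, 15 of folding and 6 of the unfolded protein response. All 48 had a row in both gene tables, among 43346 Ensembl genes. The livers came from 2 newborn mice of the inbred strain B6NCrl, at postnatal day 0, with no treatment or engineered allele named in the labels. Every library holds the RNA of a single liver and the pups shared a dam, so the design holds 1 group of 2 littermates and no contrast between conditions. The pups' sex was not collected. Levels are therefore given for each liver and as the mean ± SD (n = 2), with no p-value, since there are no groups to test against each other.

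Proteins destined for the blood are made on ribosomes at the ER membrane. The signal recognition particle binds the signal peptide as it leaves the ribosome and docks at its receptor, the SEC61 channel passes the chain into the ER with the help of the TRAP complex and of SEC62 and SEC63, signal peptidase removes the signal peptide, and the oligosaccharyltransferase transfers a sugar chain to asparagine. Chaperones such as BiP (encoded by Hspa5) and the calnexin cycle then fold the chain, and protein disulfide isomerases form its disulfide bonds. When unfolded protein builds up, the sensors IRE1, PERK and ATF6 raise the output of these same genes through the transcription factors XBP1, ATF4 and cleaved ATF6. The liver secretes most plasma proteins, and its hepatocytes are rich in rough ER.

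The sequences through which this response acts are shown here because the values below are read against them. The first is the ER stress response element (ERSE), known as a binding site of ATF6 and XBP1 together with NF-Y, written as CCAAT, 9 bases, then CCACG. RefSeq promoter sequences (GRCm38.p6, from 250 bases before to 50 bases after the start) were found for 38 of the 48 genes, and both strands were searched. The element was present in promoters of 7 of the 38 genes, all of them among the 13 folding genes with a promoter sequence. It was present in 39 of all 32851 promoters (0.119%). Members were counted by gene and the background by promoter, with the members' own promoters included. The 8 matches read as follows, 5′ to 3′ on the gene's strand, with both parts of the element in capitals, a gene's second match being marked b.
Hspa5: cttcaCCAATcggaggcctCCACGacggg
Hsp90b1: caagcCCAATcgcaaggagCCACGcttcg
Hsp90b1, b: gagtgCGTGGtgaggcacgATTGGtgagt
Calr: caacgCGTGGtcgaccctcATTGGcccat
Canx: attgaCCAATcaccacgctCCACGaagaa
Pdia6: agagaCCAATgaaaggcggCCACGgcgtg
Creld2: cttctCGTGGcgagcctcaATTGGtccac
Dnajc3: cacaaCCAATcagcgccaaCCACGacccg

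The Hspa5 window lies at chr2:34772020-34772048 on the plus strand, and its element begins 65 bases before the RefSeq start. The Hsp90b1 windows lie at chr10:86705633-86705661 and chr10:86705528-86705556, the Calr window at chr8:84847070-84847098 and the Canx window at chr11:50325795-50325823, all on the minus strand. The remaining windows are on the plus strand, that of Pdia6 at chr12:17266486-17266514, that of Creld2 at chr15:88819515-88819543 and that of Dnajc3 at chr14:118937822-118937850. In Calr, Creld2 and the second match of Hsp90b1 the element runs on the opposite strand of the gene, so that it reads as CGTGG, 9 bases, then ATTGG. A related element, ERSE-II (ATTGG, any base, then CCACG), was found in the promoter of Dnajb11, downstream of its start, and in 12 of all promoters (0.0365%). The core of the XBP1 element UPRE (TGACG followed by TGG) and the ATF4 element CARE (TGATG, any base, then AA) were found in 0 of the 38 genes. Over all promoters they were found in 0.676% and 3.97%. The CCAAT box alone, which forms part of the ERSE, was found in 28 of the 38 and in 37.4% of all promoters. A match describes the letters of a window and was not read as a bound site.

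The second sequence is the stretch of Xbp1 mRNA that the nuclease IRE1 removes to put the message into the frame of the active factor. It lies in exon 4 of Xbp1, within chr11:5524267-5524316 on the plus strand (GRCm38), and the 26 removed bases are in capitals.
Xbp1: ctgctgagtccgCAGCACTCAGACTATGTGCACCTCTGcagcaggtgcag
With the capitals the reading frame holds 267 codons, and without them 371. Of the 4 Xbp1 transcripts in the tables, 3 contained the intact stretch and 0 contained the joined sequence. The level of Xbp1 given below is thus that of the whole gene, and the spliced share was not analysed here.

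Total expected counts, the estimated reads summed over all rows of a table, were 42124582 in pup 1 and 41443673 in pup 2. Hepatocyte markers were abundant, with Apoa1 highest at 23975 ± 145 TPM (a level scaled for transcript length and for the library's total). Erythroid and neutrophil markers were abundant too, led by Hbb-bs (36475 ± 1825 TPM) and S100a8 (4522 ± 119 TPM). Of the 8 hepatocyte markers 2 were higher and 6 lower in pup 2, with a median log2 ratio of pup 2 to pup 1 of -0.122. Of the 6 erythroid markers 4 were higher and 2 lower, with a median of 0.030. Markers of 2 other cell types differed far more between the livers. The 10 pancreatic acinar cell markers summed to 6.62 TPM in pup 1 and 126 TPM in pup 2, all 10 being higher in pup 2, and the highest, Ctrb1, stood at 0.11 and 33.6 TPM, while Cpb1 and Cel were listed at 0 in pup 1. The 6 striated muscle markers summed to 50.2 and 758 TPM, with Acta1 at 16.3 and 310 TPM. Markers of plasma cells, the other secretory cell type considered, were near equal, led by Igkc (84.5 ± 1.37 TPM), and the defining Jchain and Tnfrsf17 were at 0.09 TPM or less in both livers. In such bulk samples, fewer cells of a type and less RNA per cell cannot be told apart.

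All 48 genes were detected, which means at least 1 TPM in each liver, against 28.5% of all Ensembl genes. In both livers 15 of the 48 reached 100 TPM, against 8.48% of the 12332 detected genes. Their median level was 76.9 ± 0.255 TPM, and the median over detected genes was 9.45 TPM. Together they held 0.496% of TPM in pup 1 and 0.504% in pup 2. The folding genes alone held 0.228% ± 0.00839, more than the 5 other steps taken singly, of which translocation held 0.0739% ± 0.00226, glycosylation 0.0674% ± 0.00189, signal cleavage 0.0549% ± 0.000941, signal recognition 0.0410% ± 0.000108 and the unfolded protein response 0.0346% ± 0.00103. These shares are sums, and folding was the step with the most genes. The median level was 99.9 TPM in folding, 85.0 in signal recognition, 75.7 in translocation and 72.15 in signal cleavage. In glycosylation and the unfolded protein response it was 70.2 and 34.5 TPM. By share of expected counts, which is not divided by length, the 48 genes held 0.784%, and the folding genes 0.435%.

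**Figure D1:**
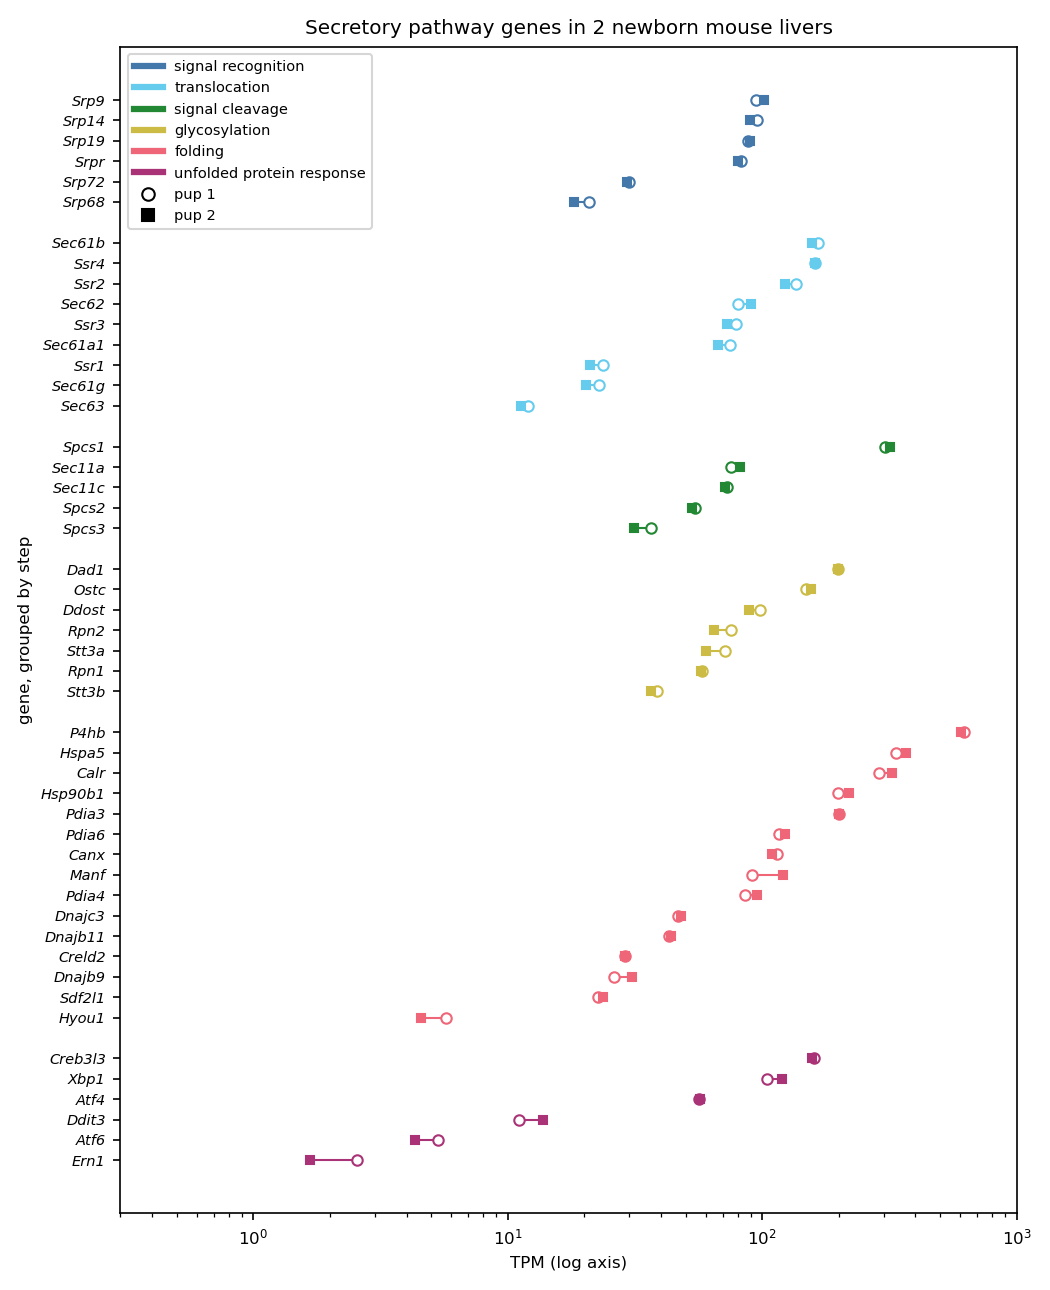
Level of each of the 48 genes (rows, grouped by step and colour) in TPM on a log axis, with an open circle for pup 1 and a filled square for pup 2. P4hb stands highest at 604 and 621 TPM and Ern1 lowest at 1.67 and 2.56 TPM; in most rows the 2 symbols nearly touch.

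The levels spanned 290-fold, from Ern1 (2.11 ± 0.629 TPM) to P4hb (613 ± 12.1 TPM). After P4hb came Hspa5 (351 ± 22.7 TPM), Spcs1 (311 ± 10.4 TPM), Calr (305 ± 25.5 TPM) and Hsp90b1 (209 ± 14.1 TPM). The order of these genes was partly unresolved, since the ranges of Spcs1 and Calr overlapped, as did those of Hsp90b1 and Pdia3. Among all 47 neighbouring places in the order, 26 had overlapping ranges. Shorter genes tended to have higher TPM, with a Spearman rho of -0.40 between length and mean TPM across the 48 genes, close to the -0.35 across the 12332 detected genes. These points share 2 libraries and are described without a test.

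A gene's TPM in these tables is the sum over its annotated transcripts, and for some of the 48 genes short transcripts that do not encode the full protein carried much of it. The types were taken from GENCODE M21, where 197 of the 204 transcripts of these genes were matched. Complete coding transcripts, those annotated as protein coding with both ends of the coding sequence present, held at least 90% of the TPM of 32 of the 47 genes that could be judged. They held under 80% in 11 genes, which were Srp19, Srp72, Srpr, Sec62, Sec63, Sec11a, Rpn2, Stt3a, Hspa5, Pdia3 and Manf, and under 50% in 3 of these. Sec62 stood lowest. Its level was 80.6 and 90 TPM in the livers of pup 1 and pup 2, of which a 639 nt transcript with a retained intron took 72.1% and 71.7%. The coding transcript of Sec62 stood at 18.6 and 19.9 TPM. In Rpn2 the transcript Rpn2-206, annotated as non-coding, held 57.2% and 59.4% of the TPM. In Stt3a a 602 nt transcript annotated as a target of nonsense-mediated decay held 35.9% and 37.5%, and the complete coding form 38.7% and 39.1%. Hspa5-204, a 477 nt transcript of the same class, held 21.2% and 18.3% of Hspa5. The shares named so far differed by under 3 percentage points between the livers. In Sec63 the gap was wider, a 699 nt transcript annotated as non-coding holding 23.5% and 12.5%. How far such shares come from the division of reads among overlapping transcripts was not tested. Spcs1 could not be judged, since the 702 nt transcript that held 97.5% and 97.2% of its TPM had no match, and it is left out wherever complete coding transcripts are counted.

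**Figure D2:**
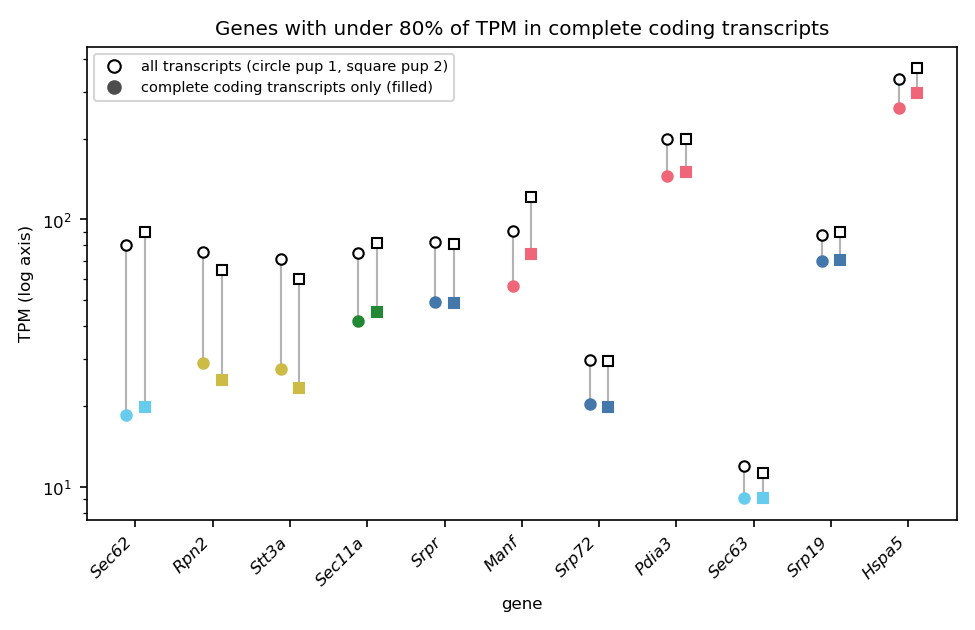
TPM on a log axis of the 11 genes with under 80% of their TPM in complete coding transcripts; open symbols give the sum over all transcripts and filled symbols, coloured by step, the complete coding transcripts (circles for pup 1, squares for pup 2). The drop is longest for Sec62, from 80.6 to 18.6 TPM in pup 1, and is of like length in both livers for most genes. For Sec63 it runs from 11.98 to 9.03 TPM in pup 1 and from 11.29 to 9.10 TPM in pup 2.

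Signal recognition spanned 5.03-fold, with 4 genes close to each other and 2 lower. Srp9 and Srp14, the partners that bind the Alu domain of the particle's RNA and slow elongation, stood at 98.2 ± 5.19 and 92.3 ± 4.30 TPM. Their log2 ratio (Srp14 over Srp9) was 0.012 in pup 1 and -0.19 in pup 2, which is no larger than its spread. Srp19, which helps assemble the particle, stood at 88.8 ± 1.41 TPM. Srp72 (29.7 ± 0.297 TPM) and Srp68 (19.5 ± 1.86 TPM), the large partners of the particle's other end, were lower. The ratio of Srp72 to Srp68 was 1.52-fold over all transcripts and 1.06-fold (log2 0.08 ± 0.07) over complete coding ones, where it was no longer larger than the spread. Srpr, the receptor subunit that binds the particle, stood at 82.4 and 80.7 TPM, of which 49.1 and 48.6 TPM were complete coding. A copy of Srp9 of 253 nt at full identity, the processed pseudogene Gm13736 (chr2:87526145-87526397, plus strand), was listed at 107 TPM in both livers. The TPM of both loci summed to 205 ± 5.47, which is 2.09 times the level of Srp9 alone and above Srp14 in both livers. This sum divides the reads of the copy by its own short length, and so overstates what they would add to Srp9. Gm13736 held 586 and 592 expected counts, against 3456 and 3676 for Srp9.

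In translocation the channel subunits were listed far apart. Sec61a1, the pore, stood at 74.5 and 67.1 TPM and Sec61b, a small tail-anchored subunit, at 166 and 157 TPM, a ratio of 2.29-fold. Sec61g, the other small subunit, stood at only 22.9 and 20.4 TPM, or 3.27-fold below Sec61a1. The low value of Sec61g depends on where reads were placed. The pseudogene Gm10177 (chr9:37252922-37253365, plus strand), identical to Sec61g (chr11:16500530-16508484, minus strand) over 420 nt, was listed at 709 and 641 TPM. It held 5775 and 5463 expected counts, against 513 and 463 for Sec61g itself. The TPM of Sec61g and of its listed copies summed to 734 and 663, 32.3 times the level of the gene alone. This sum divides the reads of Gm10177 by that locus's own, shorter length. It is therefore above the level that the same reads would give at the length of Sec61g. The place of Sec61g among the 48 genes with those reads was not determined. These tables cannot tell which of the identical loci was transcribed, so the level of Sec61g is uncertain. For the other 46 genes, copies of at least 200 nt and 90% identity either were listed at 0.74 TPM or less in each liver, had no row, or were not found.

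The TRAP complex, which aids the entry of some signal peptides, was also uneven. Ssr4 stood at 160.6 and 161.0 TPM, Ssr2 at 136 and 122 TPM, Ssr3 at 78.6 and 72.8 TPM and Ssr1 at 23.7 and 21.1 TPM. Ssr4 exceeded Ssr1 7.19-fold per length. The single Ssr1 transcript in the annotation is 9306 nt long and drew more reads, 7773 and 6948 expected counts, than Ssr4, with 3906 and 3946. Sec62 exceeded Sec63, the membrane J-protein that recruits BiP to the channel, 7.32-fold over all transcripts and 2.12-fold over complete coding ones. Sec63 itself stood at 11.98 and 11.3 TPM.

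Signal peptidase showed a high small subunit. Spcs1 stood at 304 and 318 TPM, 9.20-fold above Spcs3 (36.4 and 31.3 TPM), which is needed for catalysis, and Spcs2 lay between them at 53.6 ± 0.94 TPM. The catalytic paralogs Sec11a and Sec11c stood at 78.5 ± 4.69 and 72.2 ± 1.12 TPM. Their log2 ratio of 0.12 ± 0.11 was no larger than the spread. Over complete coding transcripts Sec11a was lower than Sec11c in both livers, by 1.51-fold, since 2 non-coding transcripts of Sec11a were left out.

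Among the oligosaccharyltransferase genes, the small subunits were again the highest. Dad1, the small subunit named as a defender against cell death, stood at 198 and 199 TPM and Ostc, found in the form of the enzyme that docks at the channel, at 149 and 155 TPM. Ddost stood at 97.7 and 88.6 TPM, Rpn1 at 57.7 and 57.2 TPM and Rpn2 at 75.6 and 64.7 TPM. The catalytic paralogs were Stt3a, which acts on chains as they enter the ER, at 71.2 and 60.1 TPM, and Stt3b, which can act later, at 38.6 and 36.5 TPM. The order of these paralogs turned with the transcripts counted. Stt3a was 1.74-fold above Stt3b over all transcripts, with a log2 ratio of 0.80 ± 0.12, and 1.48-fold below it over complete coding transcripts, with a log2 ratio of -0.56 ± 0.10. Both values exceeded 3 SD. Rpn1 to Rpn2 likewise turned from a log2 ratio of -0.28 ± 0.15, within the spread, to 1.09 ± 0.14. Rpn1 (chr6:88084482-88105304, plus strand) lies 398275 bases from Sec61a1 (chr6:88503579-88518905, minus strand).

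Folding held the highest genes of the pathway. P4hb (chr11:120560298-120573253, minus strand), which encodes a protein disulfide isomerase, stood at 621 and 604 TPM, above 98.4% of detected genes. It exceeded Pdia3, the isomerase that works with calnexin and calreticulin on glycoproteins (200 ± 0.127 TPM), 3.07-fold. Pdia6 stood at 117 and 123 TPM and Pdia4 at 85.4 and 95.5 TPM. Hspa5 (chr2:34771970-34777547, plus strand), the BiP chaperone, stood at 335 and 367 TPM and Hsp90b1, the ER member of the Hsp90 family, at 199 and 219 TPM. Hsp90b1 was 1.68-fold below Hspa5 with nearly the same ratio in both livers (log2 -0.75 ± 0.004). It overlaps Gm25745, annotated as a miRNA on the same strand (135 TPM on average), so reads may be shared. Of the lectin chaperones, Calr (soluble) stood at 287 and 323 TPM and Canx (membrane-bound) at 114 and 109 TPM, a ratio of 2.73-fold.

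The helpers of BiP were lower and spread widely. Dnajc3 stood at 47.3 ± 0.771 TPM, Dnajb11 at 43.3 ± 0.58 TPM and Dnajb9 at 28.5 ± 3.35 TPM, these 3 being J-proteins that stimulate BiP. Sdf2l1, a partner of Dnajb11, stood at 23.1 ± 0.636 TPM, 1.35-fold below its paralog Sdf2, and Creld2 at 28.9 ± 0.0849 TPM. Manf, a secreted and ER-held protein that binds BiP, stood at 90.9 and 121 TPM. Hyou1 (chr9:44379490-44392369, plus strand), the large Hsp70-related factor that exchanges nucleotide on BiP, was the lowest of the 15 folding members at 5.69 and 4.54 TPM. It lay 69.1-fold below Hspa5, and only 33.4% of detected genes lay below it. Sil1, which encodes the other exchange factor of BiP, stood at 36.7 and 36.4 TPM. No copy of Hyou1 was found, and its complete coding transcripts held 97.9% of its TPM. The split of Hyou1 between 2 coding transcripts of near-equal length differed between the livers, Hyou1-201 holding 88.4% and 46.3% of the TPM and Hyou1-206 3.66% and 45.2%.

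Of the unfolded protein response genes, the transcription factors Creb3l3, Xbp1 and Atf4 were far above the sensors Atf6 and Ern1, with Ddit3 between. Creb3l3, a liver-enriched ER-anchored factor released by cleavage as ATF6 is, stood at 159 and 157 TPM. Xbp1 stood at 104 and 119 TPM and Atf4 at 56.2 and 56.9 TPM. Ddit3, the factor CHOP that is induced under lasting stress, was low at 11.02 and 13.8 TPM and overlaps Mars on the opposite strand (49.7 TPM on average). The strand setting of the counting is not given in the sources used here, so reads of such pairs may have been mixed. Atf6 stood at 5.31 and 4.33 TPM, and Ern1, which encodes IRE1, at 2.56 and 1.67 TPM. Creb3l3 exceeded Atf6 33.0-fold and Xbp1 exceeded Ern1 54.0-fold.

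Of 30 gene pairs compared within each liver, 27 had a ratio larger than the spread, which means a log2 ratio of the same sign in both livers with a mean over 3 SD from 0. The exceptions were Srp14 to Srp9, Sec11a to Sec11c and Rpn1 to Rpn2. Over complete coding transcripts 27 of the 29 pairs without Spcs1 passed, and 3 ratios changed sign, those of Sec11a to Sec11c, Stt3a to Stt3b and Rpn1 to Rpn2.

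**Figure D3:**
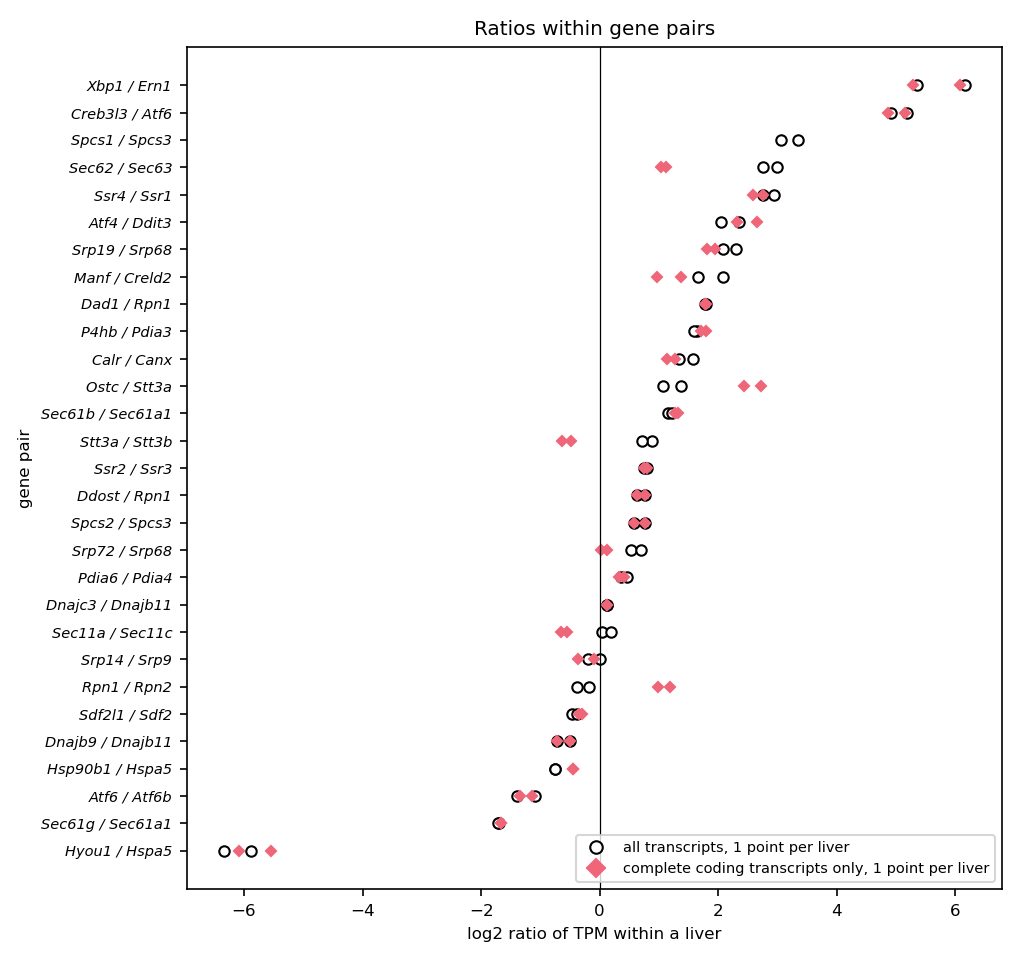
Log2 ratio of TPM within each liver for 29 of the gene pairs (rows), with open circles for all transcripts and red diamonds for complete coding transcripts only, 1 point per liver and no diamond for Spcs1 / Spcs3. Most diamonds fall on or near their circles; those of Rpn1 / Rpn2, Stt3a / Stt3b and Sec11a / Sec11c lie across the zero line from them, and that of Sec62 / Sec63 moves from 2.87 to 1.08.

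Set against its cargo, the folding machinery was small. The 38 plasma protein genes listed summed to 202346 and 197438 TPM, with Trf, the iron carrier transferrin, highest and A1bg listed at 0 in both. The 15 folding genes summed to 2223 and 2341 TPM, so that the plasma protein genes exceeded them 87.6-fold (log2 ratio of folding to plasma proteins -6.45 ± 0.08). Hspa5 alone lay 40.4-fold below Alb, which encodes albumin. These are ratios of RNA levels and say nothing of protein.

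The wider pathway was described from 110 further genes, of which 108 had a row and 103 were detected. Of 27 further glycosylation genes all were detected, from Uggt2 (1.36 ± 0.177 TPM), a glucosyltransferase that checks folding, to the small subunit gene Ost4 (235 ± 10.1 TPM). The 17 further folding genes ran from the oxidase gene Ero1lb (4.28 ± 0.573 TPM) to Ppib, the ER cyclophilin (301 ± 6.77 TPM). Among 15 further translocation genes Tram2 was lowest (5.21 ± 0.651 TPM) and Emc6, of the ER membrane insertase, highest (147 ± 2.02 TPM), and among 3 of signal recognition Srprb was lowest (8.82 ± 0.368 TPM) and Srp54c highest (37.6 ± 1.65 TPM). In ER-associated degradation 11 of 12 genes were detected, with Herpud1 highest (224 ± 13.5 TPM). Derl3 was below 1 TPM in both livers, at 0.27 and 0.70 TPM, and was 2.59-fold higher in pup 2 with intervals apart. The ER exit genes ran from Sec24b (4.37 ± 0.544 TPM) to Sar1b (178 ± 0.467 TPM), the GTPase needed for the export of lipoprotein particles.

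Of 14 further unfolded protein response genes, 10 were detected. Ppp1r15a, which reverses the translational arrest, was highest (94.7 ± 6.29 TPM). Ern2, the gut-type paralog of Ern1, was listed at 0 and 0.02 TPM. Chac1, a target of ATF4 and CHOP, stood at 0.31 TPM in both livers, and Eif2ak3, which encodes the sensor PERK, at 3.76 and 3.17 TPM. The 3 classical sensor genes Ern1, Eif2ak3 and Atf6 thus all lay below 6 TPM. Of 6 genes described as targets of CREB3L3, Apcs was highest (2680 ± 134 TPM) and Cidec lowest (6.13 ± 1.35 TPM). Hamp, the iron hormone hepcidin, stood at 224 and 129 TPM, and Apoa4 at 370 and 222 TPM. Both were over 1.5-fold lower in pup 2 with intervals apart, and the ratio of Creb3l3 itself was 0.988-fold.

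Between the littermates the 48 genes were close. The ratio of pup 2 to pup 1 was taken as log2((TPM + 1)/(TPM + 1)), on which differences of low genes appear smaller than they are, and livers were called different only where the authors' credible intervals lay apart. With 1 library per animal this is a rule of size with no replicate check. Of the 48 genes, 0 were at least 2-fold apart, against 0.629% of the 12711 genes with a mean of 1 TPM or more. At a difference of at least 25% of the lower value on that scale, with 1 TPM added to each liver, 1 was higher in pup 2, against 2.14% of all genes, and 0 were lower, against 3.19%. Without the added TPM, Hyou1 (5.69 and 4.54 TPM, 0.798-fold, intervals apart) also passed as lower. With 1 TPM added to each liver, 44 of 48 differed by less than 1.2-fold, as did 83.6% of the 12711. That background includes many genes of low level, while 45 of the 48 had a mean of 10 TPM or more. Taken without its sign, the log2 ratio had a median of 0.1004 over the 48 genes. Over the 6005 genes with a mean of 10 TPM or more it was 0.0921, so the 48 were not closer than genes of like level. The median log2 ratio was -0.015 over the 48 genes and -0.051 over all 12711.

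The gene past that size on both scales was Manf (chr9:106838312-106891979, minus strand). Its level was 90.9 TPM in pup 1 (interval 85.7 to 94.0) and 121 TPM in pup 2 (interval 115 to 124), a log2 ratio of 0.41. Its complete coding transcripts stood at 56.3 and 74.3 TPM. The gene overlaps Rbm15b on the same strand (1.56 TPM) and Dcaf1 on the opposite strand (3.60 TPM). Ddit3 (11.02 and 13.8 TPM) and Ern1 (2.56 and 1.67 TPM) differed by a like or larger factor, but their intervals overlapped.

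At any size of difference, a rule chosen after the data were seen, 9 genes were higher in pup 2 with intervals apart and 13 were lower. Over all 12711 genes these shares were 6.27% and 13.8%, and over the 6005 genes with a mean of 10 TPM or more, where intervals are narrower, 9.39% and 18.9%. Of the 45 members at that level, 9 were higher and 11 lower. The directions differed by step. Of the 15 folding genes 7 were higher in pup 2 (Hspa5, Hsp90b1, Calr, Pdia4, Pdia6, Dnajb9 and Manf) and 2 lower (Canx and Hyou1). Of the 9 translocation genes 0 were higher and 4 lower (Sec61a1, Ssr1, Ssr2 and Ssr3), and of the 7 glycosylation genes 0 were higher and 4 lower (Rpn2, Ddost, Stt3a and Stt3b). The further genes of these steps, described above, did not repeat the lean of folding. By the same rule 3 of the 17 further folding genes were higher and 4 lower. For the 15 further translocation genes these counts were 0 and 2, and for the 27 further glycosylation genes 1 and 1. Spcs1 and Xbp1 were higher in pup 2, and Srp68, Spcs3 and Atf6 lower.

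These differences were small. The folding genes that were higher differed by 1.05-fold (Pdia6) to 1.33-fold (Manf), with Dnajb9 at 26.1 and 30.9 TPM and Calr at 287 and 323 TPM. The lower genes reached 0.798-fold (Hyou1). Whether most of the 48 genes were higher or lower turned with the scaling. By TPM 21 were higher in pup 2 and 27 lower, by TMM-scaled counts 32 and 16, and by counts scaled to the library total 28 and 20. Over all 12711 genes, 36.6% were higher in pup 2 by TPM, 51.7% by TMM and 43.1% by the library total. Of the 15 folding genes, 10 were higher by TPM, 14 by TMM and 12 by the library total, and of the 9 translocation genes 2, 3 and 3. By TPM, most of the 15 folding genes were higher in pup 2, as were acinar cell and striated muscle markers. Of the acinar cell markers 10 of 10 were higher, at a sum of 126 against 6.62 TPM. Of the striated muscle markers 6 of 6 were higher, at 758 against 50.2 TPM. Of the 8 hepatocyte markers 6 were lower in pup 2. The part of these cell types in the result was not tested.

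**Figure D4:**
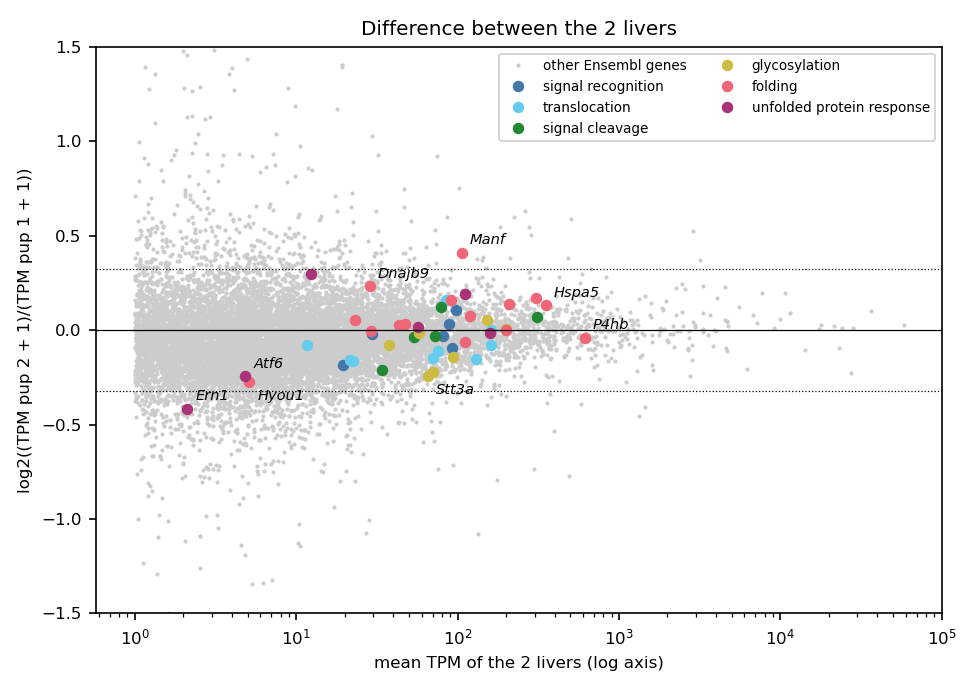
Log2 ratio of pup 2 to pup 1 against mean TPM (log axis) for all Ensembl genes with a mean of 1 TPM or more (grey; 12711 genes, those beyond 1.5 in either direction not shown) and the 48 genes coloured by step; dotted lines mark a difference of 25% of the lower value, with 1 TPM added to each. The 48 genes lie near the zero line, Manf lies above the upper dotted line at 0.41, and Ern1 lies below the lower line with overlapping intervals.

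The folding genes with and without an ERSE can be set side by side, as a description. Of the 7 with the element shown above, 4 were higher in pup 2 with intervals apart (Hspa5, Hsp90b1, Calr and Pdia6), 1 was lower (Canx) and 2 had overlapping intervals (Creld2 and Dnajc3). Of the 6 with a promoter sequence but no ERSE, 2 were higher (Pdia4 and Dnajb9). The other 4 had overlapping intervals (P4hb, Pdia3, Dnajb11 and Sdf2l1), Dnajb11 being the gene with an ERSE-II. Manf, higher in pup 2, and Hyou1, lower, had no promoter sequence and are in neither set. Over the 6005 genes with a mean of 10 TPM or more, 9.39% were higher and 18.9% lower by the same rule. The levels of both sets overlapped, the mean TPM of the 7 running from 28.9 (Creld2) to 351 (Hspa5) and that of the 6 from 23.1 (Sdf2l1) to 613 (P4hb).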

How the data were processed

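The authors deposited a gene table and a transcript table per liver in RSEM's layout, made on mm10 with GENCODE M4 per the deposited notes. The aligner, the software versions and the strand setting were not given in the sources used here. In the authors' tables the expected counts are estimated reads, those of several loci being split among them, and TPM and FPKM are levels per effective length (99 nt under the length). Credible bounds, a signal on the TPM scale, and each transcript's percent of TPM come from the authors too. The labels cite a low-input cDNA kit manual, so the priming is unclear.

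Symbols, transcript types and coordinates came from GENCODE M21 (GRCm38) by Ensembl identifier, and copies were sought with blastn 2.17.0. Of the listed symbols, Hm13 and Srp54b had no match. TMM factors came from edgeR 4.0.16. The ratio and call steps were tested on simulated data. A pseudocount of 1 TPM was used between livers and none within pairs. Named are all 48 members and, of each further list, the highest, the lowest and any at least 1.5-fold apart with credible intervals apart; of plasma protein and marker lists, the highest and those at 0. Exceptions named after their values were seen are Dcaf1, Rbm15b, Gm25745, Mars, the pseudogenes, Alb, Sil1, Sdf2, Chac1, Eif2ak3, Jchain and Tnfrsf17. Members and lists were chosen with earlier results of these data known. Complete coding transcripts, summed copies and the rule of any size were added after seeing the data. A listed 0 allows 3 counts, which is 0.0712 CPM in pup 1, for counting error only.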

Additional observations from a re-analysis of the deposited data

How the results depend on the processing

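All 48 genes stayed at 1 TPM or more under the posterior mean TPM, FPKM and in each liver alone, as did the 47 that could be judged over complete coding transcripts. The counts of 0 genes 2-fold apart and of 1 gene at least 25% higher were the same under the 8 alternatives run. The count of 0 genes at least 25% lower was the same under 7 of them and became 1 (Hyou1) with no pseudocount, which was chosen after seeing the data. Shares changed with what was divided by what. The 48 genes held 0.5001% of TPM, 0.494% of posterior mean TPM, 0.784% of expected counts, 0.691% of the TPM of protein-coding genes without mitochondrial genes and globins, and 0.404% when only complete coding transcripts were counted, which leaves out Spcs1. In the same order of expected counts, protein-coding genes and complete coding transcripts, signal recognition held 0.0434%, 0.0567% and 0.0339% (and 0.0405% of posterior mean TPM), translocation 0.0951%, 0.102% and 0.0644%, signal cleavage 0.0501%, 0.0759% and 0.0196% (the last without Spcs1, the highest of its genes), glycosylation 0.101%, 0.0932% and 0.0591%, folding 0.435%, 0.315% and 0.194%, and the unfolded protein response 0.0595%, 0.0479% and 0.0330%. The median log2 ratio of pup 2 to pup 1 over the 48 genes was -0.015 by TPM, 0.067 by TMM-scaled counts and 0.032 by counts scaled to the library total. The log2 ratio of folding to plasma protein genes was -5.76 by expected counts, -6.11 without Alb and Trf and -6.59 over complete coding transcripts, and -6.51 to -6.40 in the livers taken singly.

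By expected counts, which are not divided by length, these log2 ratios within pairs changed sign by construction: Sec61b to Sec61a1 -1.44, Ssr4 to Ssr1 -0.90, Ssr2 to Ssr3 -0.79, Rpn1 to Rpn2 0.32, Ddost to Rpn1 -0.12, Dad1 to Rpn1 -0.39, Ostc to Stt3a -0.21 and Atf6 to Atf6b 0.30. Over complete coding transcripts Sec11a to Sec11c was -0.60, Stt3a to Stt3b -0.56 and Rpn1 to Rpn2 1.09. Srp14 to Srp9 ranged from -0.19 to 0.012 in the livers taken singly. FPKM, the posterior mean and a pseudocount of 0.1 changed no sign among the 30 pairs. The number of pairs past the spread has no value in 1 liver. No paired analysis was possible because the series holds 1 group, so no groups share replicate numbers.

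With 1 library per pup and littermates only, the spread between livers mixes animal and library. Counting errors do not cover copies of 1 molecule made by PCR.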
